A study of Mus musculus with 10 samples.

Results

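Cytoplasmic ribosomal protein genes encode the proteins of the 40S and 60S ribosomal subunits. They were taken as the genes whose symbol starts with Rpl or Rps followed by a digit, together with *Rplp0*, *Rplp1*, *Rplp2* and *Rpsa*, without names starting with Rps6k or Rps19bp and without names containing -ps. This rule found 88 of the 24453 genes in the count table. By role, 31 of them encode core proteins of the 40S subunit, 43 core proteins of the 60S subunit and 3 proteins of the P-stalk, while 10 are paralogs of a core gene and *Rpl32l* was in no list.

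The study asked how the transcriptomes of 2 types of intratelencephalic projection neurons (IT-PNs), which send axons to the other hemisphere, differ in layer 5 of the mouse primary motor cortex (M1). Libraries came from 5 male *Fezf2-Gfp* reporter mice on a Swiss Webster background, with the strain given as (Zfp312-EGFP)CO61GsatMmnc, in which GFP is driven by *Fezf2* regulatory elements. At P23 to P25 the left M1 received a retrograde tracer (cholera toxin subunit B, or CTB, coupled to Alexa 647), and layer 5 of the right M1 was collected at P28 to P32. Cells with GFP and CTB (*Fezf2+ve* IT-PNs) and cells with CTB only (*Fezf2−ve* IT-PNs) were sorted by FACS from each animal, which gave 5 libraries of each type that are paired by animal. Both types therefore carried the reporter and the tracer injection, and they differed in the GFP gate.

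A ribosome joins a small subunit, which reads the mRNA, and a large subunit, which forms the peptide bond, and each subunit needs its proteins in matched amounts. The mRNAs of ribosomal proteins typically begin with a tract of C and T bases at the start site, through which mTORC1 signalling controls their translation as a group. In neurons they are also found in dendrites and axons, where newly made ribosomal proteins can join ribosomes far from the nucleus.

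The libraries were shallow, and the ribosomal protein genes took a small part of each. Reads on genes numbered 118134, 107643, 118069, 151591 and 203379 for *Fezf2+ve* cells of animals 1 to 5, and 167916, 89138, 168711, 211368 and 217738 in the *Fezf2−ve* libraries. At this depth 3 reads, taken as the floor of detection, correspond to 13.8 to 33.7 CPM (reads per 1000000 reads on genes). RNA was amplified by PCR and by in vitro transcription and no molecular identifiers are named, so reads are not independent molecules and all intervals and floors given here cover counting error only. A few genes held much of some libraries, since the 10 genes with the most reads made up 57.1, 24.3, 15.5, 47.4 and 27.4% of the gene reads in the *Fezf2+ve* libraries and 25.5, 45.1, 13.3, 31.8 and 22.2% in the *Fezf2−ve* libraries. Spiked-in ERCC transcripts took 46.7% of all counted reads in the *Fezf2+ve* library of animal 1 and 2.79% in the *Fezf2−ve* library of animal 5, with the other 8 libraries in between.

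Markers of the labelled cell type were sparse at this depth. *Fezf2* itself had 1 read, in the *Fezf2+ve* library of animal 5, so these libraries are too shallow to check the sort on its transcript, which the authors did by RT-PCR on sorted cells. Of 12 genes listed for excitatory neurons 11 had reads, *Tbr1* had 0, and their summed level was 643, 780, 423, 350 and 93.4 CPM in the *Fezf2+ve* libraries and 161, 146, 3379, 61.5 and 68.9 CPM in the *Fezf2−ve* libraries. *Camk2a*, a synaptic kinase of excitatory neurons and the gene of that list with the most reads, had 529 of its 588 reads in the *Fezf2−ve* library of animal 3. Genes listed for inhibitory neurons had 11 reads in all, with *Slc32a1*, *Pvalb* and *Vip* at 0 and 6 reads for *Gad2*, the gene of that list with the most reads.

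Of the 1553687 reads counted on genes, 4119 fell on ribosomal protein genes, or 0.265%. The authors report fewer reads than this as mapped to mm10, so some reads were counted more than once. Shares, their intervals and CPM are therefore parts of the counts and not of distinct reads. In animals 1 to 5 their share of *Fezf2+ve* libraries was 0.356, 0.208, 0.307, 0.142 and 0.187%, and in the *Fezf2−ve* libraries it was 0.412, 0.298, 0.582, 0.191 and 0.0790%. The share was thus lower in the *Fezf2+ve* library of animals 1 to 4 and higher in that of animal 5, and both the lowest and the highest value were found in *Fezf2−ve* libraries. Wilson 95% intervals of the shares overlapped in animal 1 (0.324 to 0.392% against 0.382 to 0.443%) but not in animals 2 to 5, with the closest pair in animal 4 (0.125 to 0.163% against 0.173 to 0.211%). Over animals the mean was 0.240% ± 0.0887 (SD, n = 5) in the *Fezf2+ve* type and 0.312% ± 0.195 (SD, n = 5) in the *Fezf2−ve* type. The mean difference within animals was −0.0722 percentage points ± 0.137 (SD, n = 5), which was smaller than the spread between animals. When the 10 most-read genes of each library were left out of its total, the order turned in animal 1, so that the share was lower in the *Fezf2+ve* library of 3 of 5 animals, and the mean difference was −0.0303. On the share of all gene reads, the mean difference was −0.0216 without animal 3, −0.117 without animal 5 and −0.104 without the leading ribosomal protein gene of each library.

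**Figure D1:**
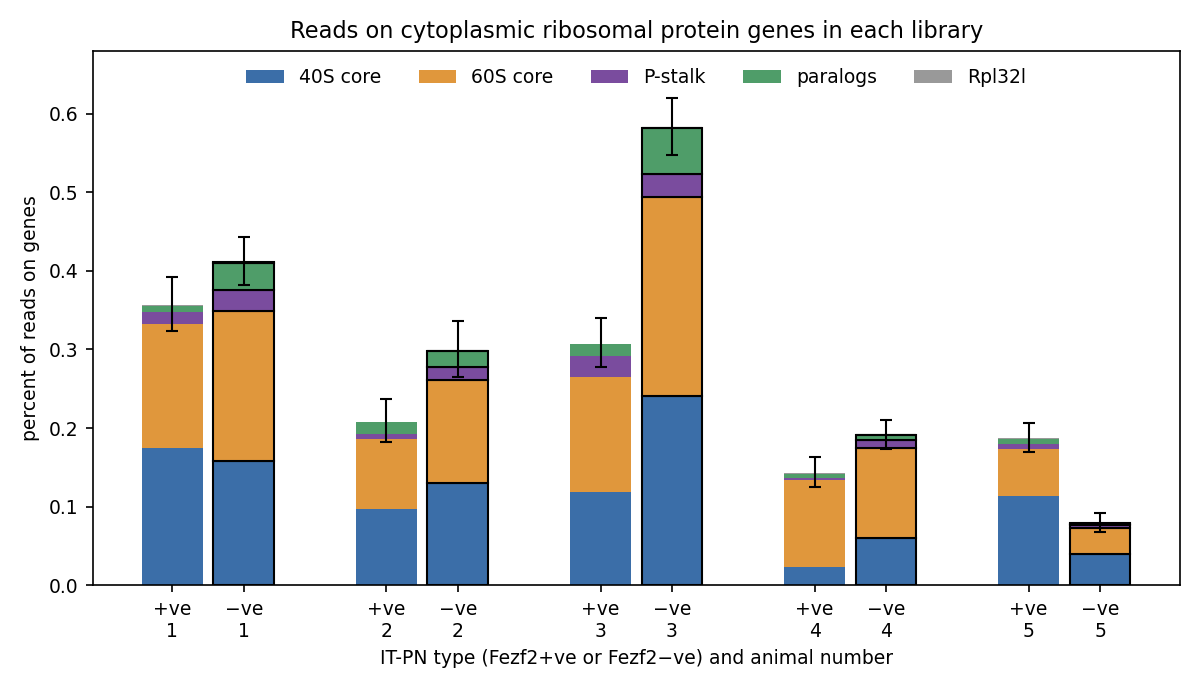
Percent of the reads on genes that fell on ribosomal protein genes in each library, stacked by role and ordered by animal, with Wilson 95% intervals of the total (counting error only) and black outlines for *Fezf2−ve* libraries. The bar of the *Fezf2−ve* library is the taller one in animals 1 to 4 and the shorter one in animal 5, where the shares were 0.187 and 0.0790%.

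The libraries also differed in how many of the 88 genes they held. At least 1 read was found for 68, 57, 72, 43 and 65 of them in the *Fezf2+ve* libraries and for 81, 68, 80, 67 and 52 in the *Fezf2−ve* libraries. At least 3 reads were found for 35, 30, 42, 9 and 31 genes and for 61, 35, 72, 42 and 21 genes, respectively. The *Fezf2+ve* library of animal 4 stood lowest on both counts, and 137 of its 216 ribosomal protein reads came from *Rpl13*. Over all libraries 86 of the 88 genes had reads, with a median of 31.5 over all 88, 19 had reads in each of the 10 libraries, 10 had 100 reads or more and 6 had fewer than 10. The testis-expressed paralogs *Rpl10l* and *Rpl39l* had 0 reads.

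A single gene often made up a large part of a library's ribosomal protein reads. The gene with the most reads was *Rps14* in the *Fezf2+ve* library of animal 1 (107 reads, 25.4% of the ribosomal protein reads), *Rps2* in that of animal 2 (38 reads, 17.0%), *Rpl13* in that of animal 4 (63.4%) and *Rps15* in that of animal 5 (117 reads, 30.8%). Among *Fezf2−ve* libraries *Rpl41* led in animal 4 (95 reads, 23.5%), *Rps9* in animal 5 (27 reads, 15.7%) and *Rpl31* in animal 2 (16 reads, 6.02%), while *Rps14* led in animals 1 and 3 and in the *Fezf2+ve* library of animal 3 (28 reads, 7.71%). Without the leading gene of each library the share was 0.266, 0.173, 0.284, 0.0521 and 0.129% in *Fezf2+ve* and 0.392, 0.280, 0.538, 0.146 and 0.0666% in *Fezf2−ve* libraries. The order within each animal was then as before, with the *Fezf2−ve* library higher in animals 1 to 4 and lower in animal 5. Seen by gene, 11 of the 86 genes with reads had over 50% of them in 1 library, and the median share of the top library was 32.8%.

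**Figure D2:**
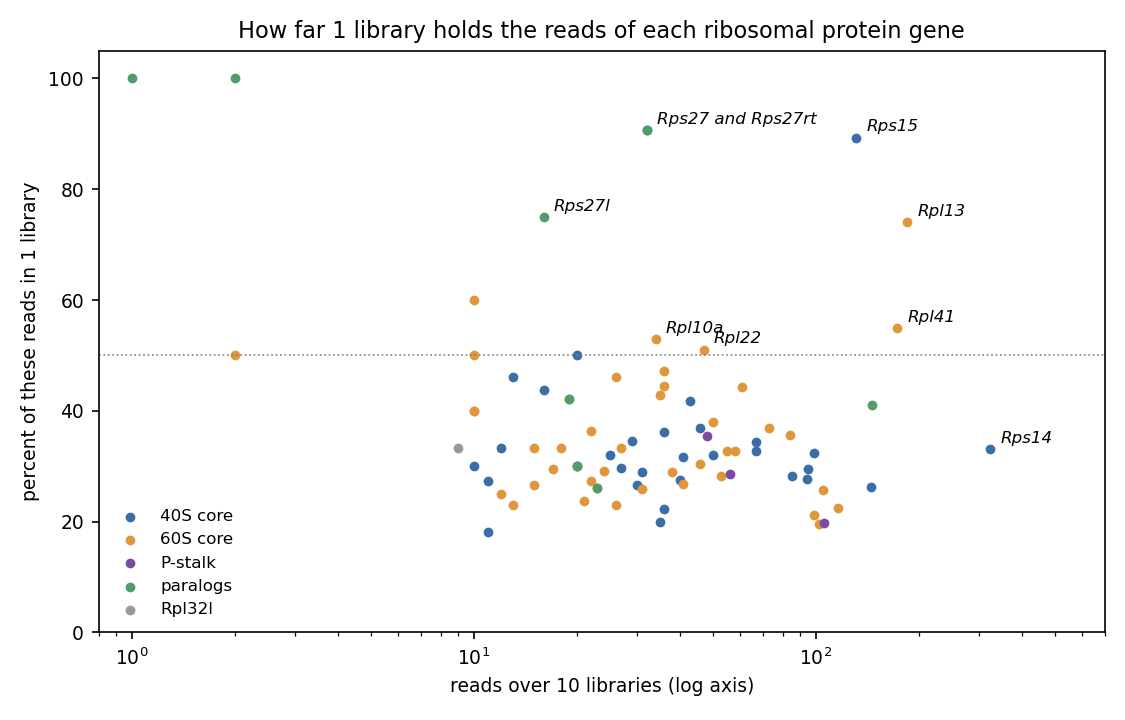
Share of each ribosomal protein gene's reads that lay in the 1 library where it had the most (vertical axis, percent) against its reads over 10 libraries (horizontal log axis), colored by role. The dotted line marks 50%, and *Rps15* and *Rpl13* lie above it in spite of 131 and 185 reads, because 117 and 137 of these came from 1 library.

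Ribosomal protein genes did not rank among the most-read genes. By mean CPM their median rank was 3263.5 of 24453 genes, and 0 of them were among the top 100. Per kilobase of mRNA the median rank was 1426 of the 23507 genes with a known length, again with 0 of them among the top 100, and the highest of them was *Rps14* at rank 168 with 371 CPM per kb. Their mRNAs had a median length of 756 bases against 2146 for all genes. The genes are short as well, with a median of 3.27 kb from first to last base on GRCm38/mm10 (GENCODE M21, as are all coordinates given), compared with 46.0 kb for the tested genes and 156 kb for the 100 genes with the highest mean CPM. The authors describe the libraries as biased to the 3′ ends of transcripts, where reads need not grow with mRNA length, so the rank per kilobase can be too high for short mRNAs. The part of gene length or of intron reads in these ranks was not tested.

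Small nucleolar RNAs, which guide the modification of ribosomal RNA, lie within 30 of the 88 genes (59 annotated in all, up to 5 in *Rpl4*). The genes are spread over 19 chromosomes. Another gene of the count table overlaps 23 of them on either strand, and since the counting tool can count a read on each gene that it overlaps, reads of such pairs can be shared.

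Many ribosomal protein genes have near-identical copies elsewhere in the genome, which limits what their counts mean. Of 85 members with an annotated coding part, 77 had at least 1 other GENCODE gene with 95% or more identity over at least 80% of the coding bases, with 570 such copies in all, of which 548 are pseudogenes. The median was 5 copies and the most were 57, for *Rpl21*. For 16 members a copy had a count of its own in the table, and for 5 of them (*Rps27*, *Rps27rt*, *Rpl30*, *Rpl26* and *Rpl34*) the copy had the same number of reads in every library, so that the reads of the pair cannot be told apart. Equal counts were also found elsewhere, since 841 of the 9152 genes with at least 5 reads (9.19%) shared their counts in all 10 libraries with another gene.

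*Rpl26* (chr11:68901583-68906989) and the processed pseudogene *Gm15772* (chr5:3236431-3236868) each had 18 reads and share 433 of 435 coding bases. *Rpl30* had 61 reads and *Rpl34* had 55, each as many as 1 of its processed pseudogenes. The stretches below, from GENCODE transcripts on GRCm38, cover coding bases 140 to 214 of *Rpl26* and the matching part of its copy. They are shown because within these 75 bases the gene and its copy differ at 1 base, which is in capitals, so that a read needs to cover such a base to be placed.
Rpl26: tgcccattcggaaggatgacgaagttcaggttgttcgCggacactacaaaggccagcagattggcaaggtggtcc
Gm15772: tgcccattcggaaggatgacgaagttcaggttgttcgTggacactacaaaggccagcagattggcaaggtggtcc

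The proteins of the 40S subunit bind the mRNA and check its pairing with tRNA. All 31 of their genes had reads and passed the filter of at least 10 CPM in at least 2 libraries. Their share was 0.106% ± 0.0545 (SD, n = 5) in the *Fezf2+ve* type and 0.126% ± 0.0805 (SD, n = 5) in the *Fezf2−ve* type, with the *Fezf2−ve* library higher in 3 of 5 animals. Of the fitted log2 fold changes (*Fezf2+ve* over *Fezf2−ve*) 24 were negative and 7 positive, with a median of −0.49.

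*Rps14*, a protein of the 40S platform (chr18:60747098-60778546), had the most reads of all members. Its reads numbered 107, 4, 28, 6 and 26 in the *Fezf2+ve* libraries and 33, 3, 74, 18 and 25 in the *Fezf2−ve* libraries. The *Fezf2+ve* library of animal 1 was the highest of the 10, the libraries of animal 2 were among the lowest in both types, and the groups overlapped. The mean level was 269 CPM ± 365 (SD, n = 5) against 174 CPM ± 159 (SD, n = 5), and the fitted log2 fold change of 0.11 (SE 1.06) turned to −0.47 without animal 1 and to −0.02 without animal 5.

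*Rps2*, which lies at the entry of the mRNA channel (chr17:24718116-24721929), was the member with the smallest p among those higher in *Fezf2+ve* IT-PNs. It had 15, 38, 21, 6 and 14 reads in *Fezf2+ve* and 29, 1, 16, 1 and 4 reads in *Fezf2−ve* libraries. Its level was higher in the *Fezf2+ve* library of animals 2 to 5 and lower in that of animal 1, and the groups overlapped. The log2 fold change was 1.88 (SE 1.15), with an adjusted p of 0.998 (edgeR, Benjamini-Hochberg).

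*Rps9*, another protein of the mRNA entry (chr7:3703993-3706897), was the only member that was higher in the *Fezf2−ve* library of each of the 5 animals. The *Fezf2+ve* libraries held 1, 4, 1, 1 and 6 reads of it and the *Fezf2−ve* libraries 14, 8, 32, 5 and 27. All *Fezf2+ve* libraries were low, but the *Fezf2−ve* library of animal 4 was lower, at its depth, than the *Fezf2+ve* libraries of animals 2 and 5, so that the groups overlapped. Mean levels were 18.04 CPM ± 14.2 (SD, n = 5) and 102 CPM ± 60.8 (SD, n = 5), and the log2 fold change was −2.41 (SE 1.06). This had the smallest unadjusted p of all members, and it did not pass the adjustment over the 7409 tested genes (edgeR with Benjamini-Hochberg, adjusted p = 0.998 with the animal block and 0.191 without it, and 0.226 in DESeq2).

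*Rps15*, a protein of the 40S head (chr10:80292453-80294114), showed how far 1 library can set a value. Its reads were 0, 0, 1, 0 and 117 for *Fezf2+ve* and 3, 5, 5, 0 and 0 for *Fezf2−ve* libraries. Nearly all of its reads came from the *Fezf2+ve* library of animal 5, whereas in animals 1 to 3 the *Fezf2−ve* library was higher. The fit with the animal block gave a log2 fold change of −1.20 (SE 2.00) and the fit without it 3.09 (SE 1.87).

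*Rps16*, also of the 40S head (chr7:28350652-28353155), had 10, 1, 1, 3 and 2 reads against 2, 0, 7, 3 and 0, a log2 fold change of 1.26 (SE 1.39). It was higher in the *Fezf2+ve* library of 4 of 5 animals. *Rpsa*, which is also known as a laminin receptor (chr9:120127689-120132369), had 4, 3, 8, 0 and 2 reads against 7, 5, 4, 1 and 2. Its mean levels of 27.9 and 27.1 CPM were close, and its log2 fold change was −0.14 (SE 1.05) with the block and 0.05 without it.

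*Rps27*, a zinc-binding protein of the 40S subunit (chr3:90212522-90213651), and its intronless retrocopy *Rps27rt* (chr9:114982366-114982739) share all 252 coding bases and had the same counts. Each had 0 reads in the 5 *Fezf2+ve* libraries and 2, 0, 29, 0 and 1 reads in the *Fezf2−ve* libraries. Thus 29 of the 32 reads came from the *Fezf2−ve* library of animal 3, and the *Fezf2−ve* libraries of animals 2 and 4 held none, like the *Fezf2+ve* libraries. Against the floor of 3 reads in each library, the mean of *Fezf2−ve* libraries was higher by a factor of 1.66 or more. This bound rested on the library of animal 3 alone, since the other *Fezf2−ve* libraries, with at most 2 reads, were under that floor. *Rps27rt* lies within *Osbpl10* (chr9:114978569-115232225), on the opposite strand, and *Osbpl10*, looked at after the values were seen, had 2 reads in the *Fezf2−ve* library of animal 3. Their adjusted p was 0.998 in edgeR with the block and 0.145 without it (Benjamini-Hochberg), the lowest of all members. The log2 fold change was −4.61 (SE 2.07), and −2.21 (SE 2.73) in DESeq2.

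The start sites of this pair are shown because they differ while the transcripts are alike. The windows hold 45 bases before and 15 bases after the start site that RefSeq gives on GRCm38.p6, at chr3:90213634-90213693 and chr9:114982725-114982784, both on the minus strand, with the run of C and T bases at the start in capitals. When the start is shifted by 1 base the first 38 bases of both transcripts are the same, whereas 8 of the 45 bases before them match.
Rps27: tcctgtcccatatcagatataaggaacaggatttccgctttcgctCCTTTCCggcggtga
Rps27rt: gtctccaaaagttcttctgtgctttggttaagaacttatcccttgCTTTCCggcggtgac

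Such a tract was searched for at all RefSeq start sites. A start site with 250 bases before and 50 after it was given for 67 of the 88 members, with 79 sites in all. A C at the start followed by at least 4 bases that are each C or T was found at 15 of the 79 sites (19.0%) and at 2.51% of all 32851 start sites. The search took only the exact start that RefSeq gives, so tracts beside an imprecise start were missed. Members without a match here can therefore still have the tract. The motif CCGGAAG, which ETS family factors bind, was present on either strand in 34.2% of the members' windows and 8.86% of all windows, AAGATGG, the core of the YY1 motif, in 15.2 and 6.34%, GGGCGG in 58.2 and 35.7%, and TATAAA in 10.1 and 13.6%. Median GC content was 58.0% against 52.7%, and the motifs can overlap each other. These are matches of letters, and binding was not measured. The windows below are of members that differ in subunit and role, namely *Rps6* (chr4:86857353-86857412, minus strand), *Rps10* (chr17:27635230-27635289, minus strand), *Rps18* (chr17:33955651-33955710, minus strand), *Rpl15* (chr14:18270972-18271031, minus strand), *Rpl28* (chr7:4792920-4792979, plus strand), *Rpl35* (chr2:39005117-39005176, minus strand) and *Rplp2* (chr7:141447606-141447665, plus strand), each with 45 bases before the start and the tract in capitals. The tract is shown because it is the feature that the members share most often relative to other genes, and it is longest in *Rpl15*, with 13 bases.
Rps6: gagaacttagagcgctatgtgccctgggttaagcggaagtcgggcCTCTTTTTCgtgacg
Rps10: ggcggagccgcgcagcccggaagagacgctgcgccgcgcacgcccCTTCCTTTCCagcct
Rps18: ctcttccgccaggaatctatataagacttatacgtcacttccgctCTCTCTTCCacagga
Rpl15: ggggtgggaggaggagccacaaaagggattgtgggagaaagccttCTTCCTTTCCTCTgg
Rpl28: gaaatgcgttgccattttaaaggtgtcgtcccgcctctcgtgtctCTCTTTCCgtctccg
Rpl35: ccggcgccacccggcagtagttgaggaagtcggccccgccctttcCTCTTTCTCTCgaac
Rplp2: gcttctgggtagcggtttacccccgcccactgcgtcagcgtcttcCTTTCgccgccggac

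*Rps6* and *Rpl15*, with windows above, were picked after their values had been seen. *Rps6*, the substrate of the S6 kinases, had 3, 2, 1, 0 and 3 reads in *Fezf2+ve* and 3, 7, 13, 3 and 1 reads in *Fezf2−ve* libraries (log2 fold change −1.18, SE 1.33). *Rpl15* had 1, 4, 4, 1 and 0 reads against 10, 2, 19, 4 and 5 (−1.70, SE 1.20). In CPM *Rps6* was highest in the *Fezf2−ve* libraries of animals 2 and 3, which were close to each other, and *Rpl15* in that of animal 3, and for both genes the groups overlapped.

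The proteins of the 60S subunit surround the center of peptide bond formation and the exit tunnel. All 43 of their genes had reads, and 42 passed the filter, the exception being *Rpl38* with 2 reads. Their share was 0.112% ± 0.0402 (SD, n = 5) in the *Fezf2+ve* type and 0.145% ± 0.0832 (SD, n = 5) in the *Fezf2−ve* type, with the *Fezf2−ve* library higher in 4 of 5 animals. Of the log2 fold changes 34 were negative and 8 positive, with a median of −0.50.

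*Rpl13* (chr8:123102350-123105244) had the most reads of this subunit, namely 1, 0, 6, 137 and 7 in *Fezf2+ve* and 13, 0, 13, 7 and 1 in *Fezf2−ve* libraries. The *Fezf2+ve* library of animal 4 held 74.1% of them, and the groups overlapped. The log2 fold change of 0.98 (SE 1.69) was −0.29 without animal 4. *Rpl41* (chr10:128548114-128549305), which encodes the smallest ribosomal protein, had 10, 7, 8, 3 and 12 reads against 13, 5, 17, 95 and 3. Here the *Fezf2−ve* library of animal 4 held 54.9% of the reads, and the log2 fold change of −0.32 (SE 1.23) was 0.40 without animal 4. The libraries of animal 4 were thus far above the others for different genes in each type.

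Other well-read genes of the 60S subunit were spread more evenly. *Rpl8*, close to the center of peptide bond formation (chr15:76904078-76906314), had 13, 10, 18, 1 and 6 reads in *Fezf2+ve* and 17, 11, 26, 13 and 1 reads in *Fezf2−ve* libraries. Mean levels were 78.3 CPM ± 59.7 (SD, n = 5) and 89.0 CPM ± 58.0 (SD, n = 5), and each type had 1 library at 1 read. The log2 fold change was −0.12 (SE 1.21) and 0.40 without animal 4.

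*Rpl37a*, a zinc-binding protein (chr1:72711290-72713813), had 16, 7, 7, 0 and 6 reads against 20, 7, 27, 5 and 10 (log2 fold change −0.92, SE 1.12). *Rpl31*, at the rim of the exit tunnel (chr1:39367842-39371911), had 7, 6, 7, 3 and 12 reads against 21, 16, 9, 15 and 3 (−0.50, SE 1.09). Groups overlapped for both, and for both the *Fezf2−ve* libraries spread more widely in CPM. *Rpl17*, which lines the exit tunnel (chr18:74998558-75003381), had 3 reads in the *Fezf2+ve* library of animal 1 and 0 in the other 4, against 9, 0, 9, 2 and 4 in *Fezf2−ve* libraries. It was higher in the *Fezf2−ve* library of 4 animals and at 0 in both libraries of animal 2, with a log2 fold change of −2.88 (SE 1.65) and an adjusted p of 0.998 in edgeR with Benjamini-Hochberg adjustment.

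*Rpl27* (chr11:101442298-101445529) and *Rpl3*, close to the center of peptide bond formation (chr15:80077791-80091868), were the genes of this subunit with the smallest p among those higher in *Fezf2+ve* IT-PNs. *Rpl27* had 6, 2, 5, 1 and 1 reads against 0, 2, 2, 3 and 0 (log2 fold change 1.38, SE 1.43), and *Rpl3* had 5, 2, 3, 0 and 1 reads against 0, 1, 3, 2 and 0 (1.08, SE 1.58). With at most 6 reads in a library, values of this size were at or near the floor, and no difference was detectable at this depth.

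The P-stalk, which recruits the GTPases of elongation to the 60S subunit, is formed by *Rplp0*, *Rplp1* and *Rplp2*. Its share was 0.0113% ± 0.00957 (SD, n = 5) in the *Fezf2+ve* type and 0.0172% ± 0.0106 (SD, n = 5) in the *Fezf2−ve* type, and the *Fezf2−ve* library was higher in 4 of 5 animals. *Rplp1* (chr9:61913284-61914542), with 106 reads, had 9, 4, 14, 3 and 7 in *Fezf2+ve* and 20, 11, 21, 12 and 5 in *Fezf2−ve* libraries (log2 fold change −0.61, SE 0.98). It was among the most evenly covered of the well-read members, with 19.8% of its reads in its top library. *Rplp0* (chr5:115559467-115563727) had 4, 2, 12, 1 and 2 reads against 8, 2, 16, 8 and 1 (−0.36, SE 1.05), and *Rplp2* (chr7:141447370-141451585) had 5, 1, 5, 0 and 3 against 17, 2, 11, 2 and 2 (−0.86, SE 1.09). The groups overlapped for all 3 genes, and the value of *Rplp0* was 0.04 without animal 4. A transcript of *Wdr89*, which had 78 reads, holds a stretch close to the coding part of *Rplp2*, so reads of *Rplp2* are uncertain.

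**Figure D3:**
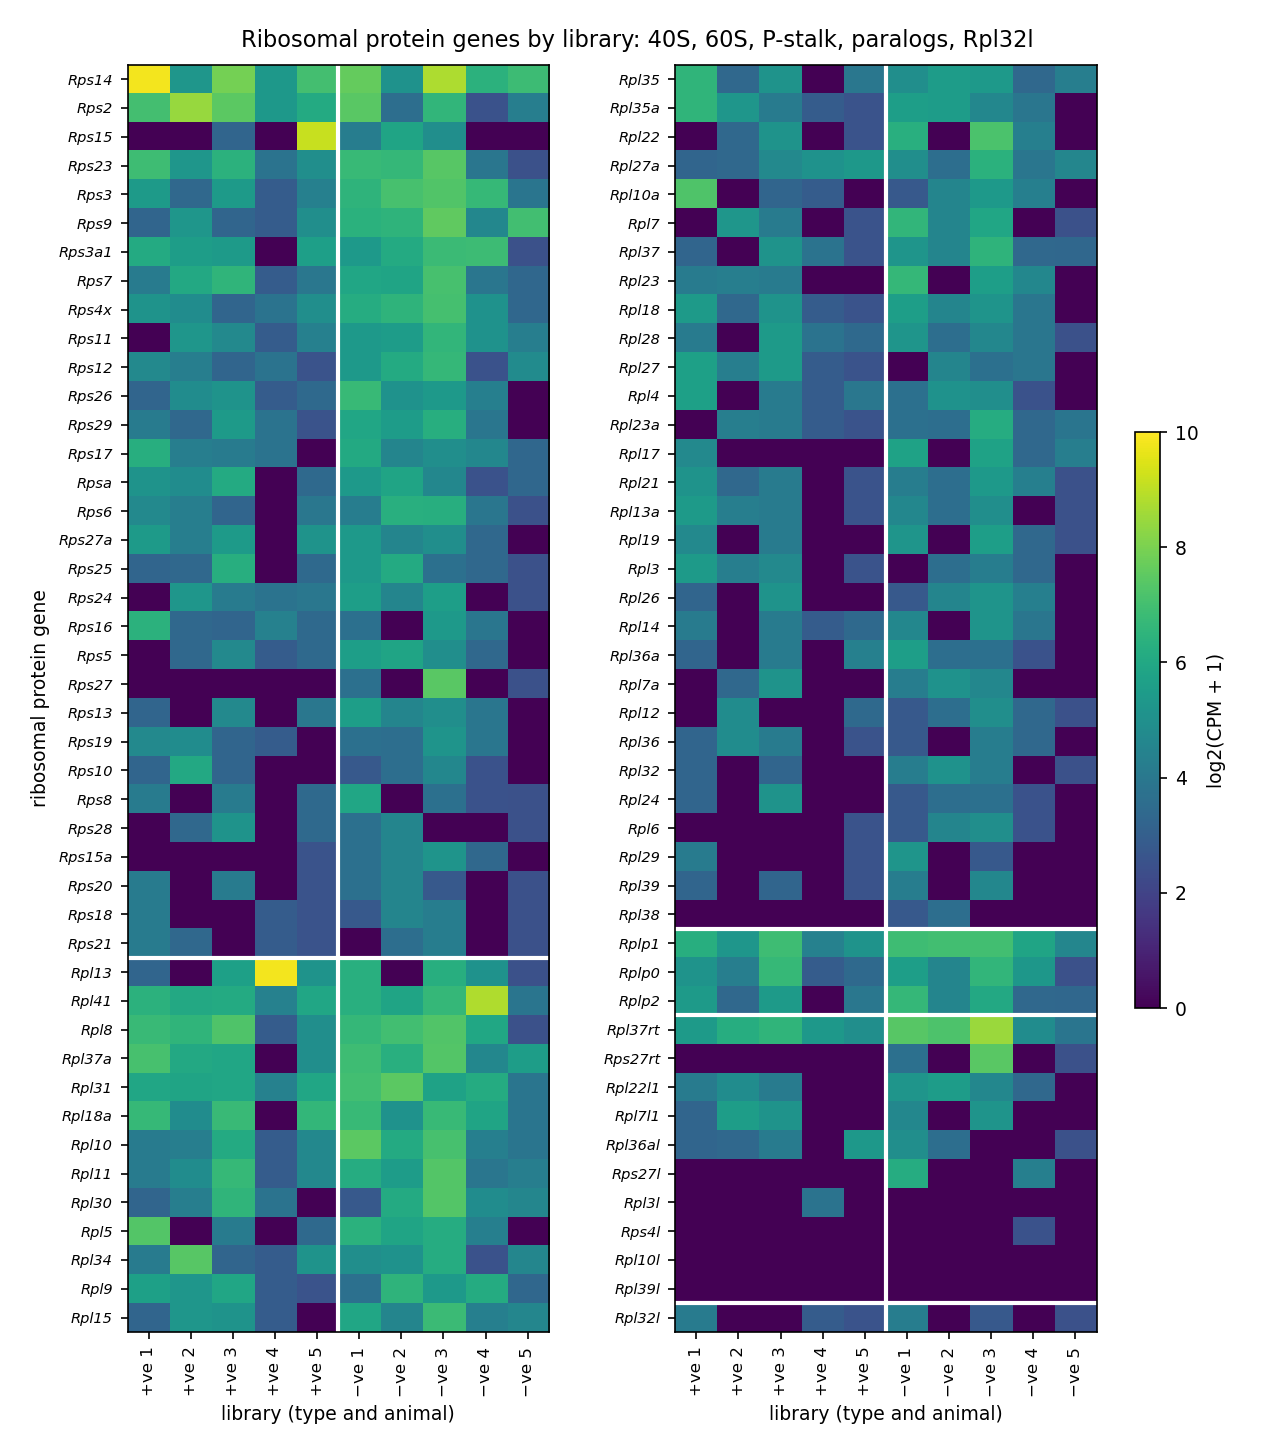
Level of all 88 ribosomal protein genes in the 10 libraries as log2(CPM + 1), with *Fezf2+ve* libraries left and *Fezf2−ve* libraries right of the vertical line and horizontal lines between the 40S, 60S, P-stalk and paralog genes and *Rpl32l*. Single bright cells, such as *Rps15* in the *Fezf2+ve* library of animal 5 (117 reads), stand beside cells at 0 of the same gene.

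Paralogs here are gene copies of a core gene, and for some of them no protein is annotated. Of 10 with counts, 8 had reads and 6 passed the filter. *Rpl37rt*, a copy of *Rpl37* annotated as a transcribed processed pseudogene (chr5:115102923-115110268), had 146 reads, with 5, 8, 11, 6 and 6 in *Fezf2+ve* and 28, 13, 60, 6 and 3 in *Fezf2−ve* libraries, whereas *Rpl37* (chr15:5116645-5119140) had 1, 0, 4, 2 and 1 against 6, 2, 15, 2 and 2. The *Fezf2−ve* library of animal 3 was the highest for both genes. Their log2 fold changes were −0.69 (SE 1.06) and −1.25 (SE 1.16), and mapping could place reads of either gene on the other.

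*Rps27l*, a paralog of *Rps27* that is a target of p53 (chr9:66946086-66949516), had 0 reads in all 5 *Fezf2+ve* libraries and 12, 0, 0, 4 and 0 in the *Fezf2−ve* libraries. Its mean in *Fezf2−ve* IT-PNs, 18.1 CPM ± 30.9 (SD, n = 5), lies under the mean floor of 22.6 CPM of the *Fezf2+ve* libraries, so no fold is given. The *Fezf2−ve* libraries with reads of *Rps27l* (animals 1 and 4) were not the one with most reads of *Rps27* (animal 3).

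*Rpl22l1* (chr3:28805436-28807424) had 23 reads against 47 for *Rpl22*, *Rpl7l1* (chr17:46773907-46782672) had 20 against 36 for *Rpl7*, and *Rpl36al* (chr12:69182731-69184083) had 19, as many as *Rpl36a*. Their log2 fold changes were −1.01 (SE 1.24), 0.49 (SE 1.69) and 1.02 (SE 1.58). *Rpl7l1* was at −0.56 without animal 2. *Rpl3l*, a form found in striated muscle (chr17:24727820-24736143), had 2 reads, both in the *Fezf2+ve* library of animal 4, and *Rps4l* (chr6:148354656-148355598) had 1, in the *Fezf2−ve* library of animal 4. The genes *Rps4y2*, *Rps3a2* and *Rps3a3*, also listed as paralogs, have no entry in the count table. *Rpl32l* had 9 reads and lies inside *Map7*, a gene for a microtubule-binding protein with 553 reads.

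Taking the members together, 83 of the 88 passed the filter and were tested, and the 5 that did not were *Rpl38*, *Rpl3l*, *Rps4l*, *Rpl10l* and *Rpl39l*. With the animal block, edgeR's quasi-likelihood test called 0 of the 83 at a Benjamini-Hochberg adjusted p of 0.1, and 0 (0%) of all 7409 tested genes. At an unadjusted p under 0.05 it found 3 of the 83 (3.61%), *Rps9*, *Rps27* and *Rps27rt*, compared with 288 (3.89%) of all tested genes. *Rps27* and *Rps27rt* have the same counts and are 1 signal, mostly from 1 library. Counts and sums over the members can hold these reads more than once. Without the block 0 of the 83 were called and 279 (3.77%) of all genes, and with DESeq2 and the block 0 of the 83 and 98 (1.32%) of all genes. DESeq2 gave no adjusted p for 68 of the 83. At an unadjusted p under 0.05 the fit without the block found 4 of the 83 and 1345 of the 7409, and DESeq2 1 of the 83 and 302 of the 7409. The share of members with a small p was thus near that of all genes in edgeR with the block and under it in the other fits.

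The direction of the fitted values leaned to *Fezf2−ve* IT-PNs. Of the 83 log2 fold changes 65 (78.3%) were negative and 18 positive, with a median of −0.51, while 54.3% of all tested genes were negative and their median was −0.16. With the 3 genes that had 0 reads in *Fezf2+ve* libraries set to their bound, the members' median was −0.50. Each edgeR standard error was taken as the absolute log2 fold change over the square root of its F statistic. These standard errors were large, with a median of 1.39, and the log2 fold change exceeded its standard error in 18 genes. It exceeded 2 standard errors in 3, *Rps9* and the pair *Rps27* and *Rps27rt* with equal counts, which restates their unadjusted p. Where F is near 0 the value is unstable, as for *Rps24* (log2 fold change −0.02, SE 9.72). Since a gene could pass the filter through 1 type alone, these counts describe the tested genes and not all 88. In bulk libraries, more cells of a type and more RNA per cell cannot be told apart.

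**Figure D4:**
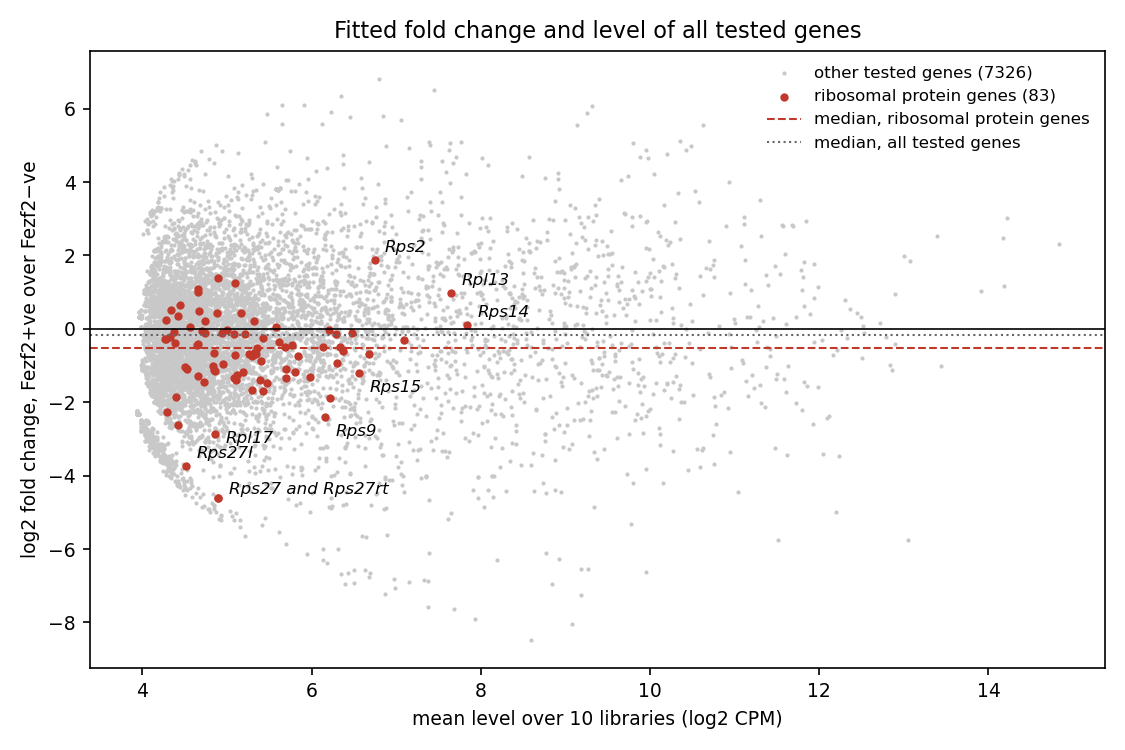
Fitted log2 fold change (*Fezf2+ve* over *Fezf2−ve*) against mean level in log2 CPM for the 83 tested ribosomal protein genes (red) and the other tested genes (grey), with the median of the members (dashed) and of all tested genes (dotted). The members lie within the cloud of other genes, with medians of −0.51 and −0.16.

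By animal the direction was less uniform. In animals 1 to 4, 55, 54, 64 and 58 members had a higher level in the *Fezf2−ve* library and 29, 19, 18 and 14 in the *Fezf2+ve* library, but in animal 5 it was 15 against 58. As a share of the members that differed, those higher in the *Fezf2−ve* library made up 65.5, 74.0, 78.0, 80.6 and 20.5%, and over all genes 64.8, 43.2, 57.4, 60.1 and 44.4%. Animal 5 thus went against the other 4 animals. The members' median log2 fold change of −0.51 moved most without animal 5, to −1.001, while leaving out another animal gave −0.39 (without animal 4) to −0.68 (without animal 3). The gap to the median of all tested genes, −0.35 with all animals, was −0.13 without animal 2 and −0.71 without animal 5, so its size depended on single animals. Of single genes, 27 were higher in the *Fezf2−ve* library of at least 4 animals, and 3 in the *Fezf2+ve* library of at least 4 animals (*Rps2*, *Rps16* and *Rpl3*). How many of all tested genes were as uniform was not counted, so these numbers do not set the members apart.

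The balance of the subunits varied between libraries. The ratio of 40S to 60S core reads was 1.12, 1.08, 0.809, 0.216 and 1.92 in *Fezf2+ve* and 0.831, 0.991, 0.949, 0.519 and 1.26 in *Fezf2−ve* libraries. Without the leading gene of each library it was 0.541, 0.688, 0.647, 1.20 and 0.950, and 0.728, 1.15, 0.776, 0.851 and 0.871. The lowest and the highest ratio, in the *Fezf2+ve* libraries of animals 4 and 5, thus rested on *Rpl13* and *Rps15*.

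Proteins of the ribosome whose gene names fall outside the rule had few reads. *Fau*, which encodes a 40S protein fused to a ubiquitin-like one, had 26 reads (log2 fold change −1.80, SE 1.57), and *Gnb2l1*, the 40S scaffold also called *Rack1*, had 20 (−2.10, SE 1.54). *Gnb2l1* was higher in the *Fezf2−ve* library of 4 animals, and neither gene was called by edgeR with or without the block. DESeq2 gave no adjusted p for either gene.

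Initiation factors bring the mRNA and the first tRNA to the 40S subunit. Of 44 listed genes 39 had reads, 32 were tested, and 0 were called in edgeR with or without the block and in DESeq2. DESeq2 gave an adjusted p only for *Eif4g3* and *Eif5b* and could not have called the others. Of their log2 fold changes 18 were positive and 14 negative, with a median of 0.28, so that their median had the opposite sign to that of the ribosomal proteins. *Eif4g3*, a scaffold of the cap-binding complex and the best-read gene of the list with 94 reads, had 3, 7, 9, 1 and 5 in *Fezf2+ve* and 7, 0, 28, 14 and 20 in *Fezf2−ve* libraries (log2 fold change −0.84, SE 1.33). Summed levels were 533, 669, 652, 567 and 723 CPM in *Fezf2+ve* and 1608, 606, 1043, 303 and 276 CPM in *Fezf2−ve* libraries, and the *Fezf2−ve* libraries of animals 1 and 5 were the highest and the lowest of all.

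Elongation and termination factors move the ribosome along the mRNA and release the chain. Of 13 listed genes 11 had reads and 10 were tested, with 8 negative and 2 positive log2 fold changes and a median of −1.49. *Eef1a1*, which delivers tRNA, is like ribosomal proteins encoded by an mRNA with a start tract, and had 398 reads, with 24, 24, 14, 0 and 3 in *Fezf2+ve* and 37, 225, 50, 16 and 5 in *Fezf2−ve* libraries. It was higher in the *Fezf2−ve* library of all 5 animals, and 225 of the reads came from 1 of them (log2 fold change −1.91, SE 1.30). *Eef2*, the translocase, had 9, 35, 11, 0 and 1 reads against 9, 20, 219, 5 and 0, with 70.9% in the *Fezf2−ve* library of animal 3. *Eef2k*, the kinase that inhibits it, had 0 reads in all *Fezf2+ve* libraries and 16, 0, 5, 1 and 21 in *Fezf2−ve* libraries. It was the only gene of the list that was called without the block (adjusted p = 0.0931, edgeR with Benjamini-Hochberg), and with the block its adjusted p was 0.998. DESeq2 called 0 genes of the list, but it gave an adjusted p only for *Eef1a1* and *Eef2* and none for *Eef2k*. *Eef1g*, a subunit of the exchange factor for *Eef1a1* that was picked after its values had been seen, went the other way in all 5 animals, with 12, 2, 2, 3 and 1 reads against 1, 0, 2, 0 and 0 (log2 fold change 3.03, SE 1.49).

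Factors of ribosome biogenesis process the ribosomal RNA and assemble the subunits. Of 35 listed genes 30 had reads and 11 were tested, and 0 were called by edgeR with or without the block or by DESeq2 (median log2 fold change −0.28, 8 negative). Only *Mdn1* had an adjusted p in DESeq2. *Mdn1*, the ATPase that remodels the 60S precursor, had 117 reads, with 49 in the *Fezf2+ve* library of animal 2 and 40 in the *Fezf2−ve* library of animal 3. The list for the mTORC1 pathway, with its kinases, its regulators and Larp proteins, and for the kinases of Rps6 held 18 genes, of which 11 were tested and 0 called by either tool, with a median of −1.13 and 7 negative values. Here DESeq2 gave an adjusted p for *Rps6ka2* only. *Rps6ka2*, a kinase of Rps6, had 331 of its 351 reads in the *Fezf2+ve* library of animal 3, and *Mtor* itself had 45 of 61 in that of animal 2. Reads of *Rps6ka2* and of *Mtor* were thus also gathered in single libraries. This did not hold for all genes of the lists. *Bms1*, a biogenesis factor with 58 reads that was picked after its values had been seen, had 15.5% of them in its top library.

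Long noncoding RNAs that stay in the nucleus were listed because they tell of nuclear RNA, whereas ribosomal protein mRNAs are mostly cytoplasmic. All 9 had reads, 4 were tested and 0 called by either tool, and all 4 log2 fold changes were positive with a median of 1.56. DESeq2 gave an adjusted p only for *Neat1* and *Malat1*. *Neat1*, the scaffold of paraspeckles, had 9, 244, 4, 38 and 332 reads in *Fezf2+ve* and 12, 10, 8, 28 and 460 in *Fezf2−ve* libraries (0.80, SE 1.17), and *Malat1* had 29, 33, 27, 3 and 21 against 98, 22, 38, 4 and 4 (0.30, SE 1.02). *Snhg11*, a host gene of small nucleolar RNAs, and *Meg3*, an imprinted gene, were picked after their values had been seen and had the larger values. *Snhg11* had 5, 30, 1, 0 and 42 reads against 0, 2, 0, 0 and 1 (4.29, SE 1.46), the only gene of the list with an unadjusted p under 0.05 in edgeR with the block, and *Meg3* had 12, 7, 2, 2 and 6 against 5, 0, 3, 0 and 1 (2.33, SE 1.28). For *Neat1* the *Fezf2+ve* library of animal 2 and both libraries of animal 5 stood far above the other 7, and the *Fezf2−ve* library of animal 5 also had the lowest ribosomal protein share. Their summed level was 483, 2926, 288, 383 and 1977 CPM in *Fezf2+ve* and 685, 381, 296, 156 and 2140 CPM in *Fezf2−ve* libraries. The part of nuclear RNA in the ribosomal protein share was not tested.

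Genes of microglia stood apart between the types. All 12 microglia genes had a negative log2 fold change (median −5.03) and a higher level in the *Fezf2−ve* library of each animal. With the block edgeR called 0 of them, at an unadjusted p under 0.05 it found 11, without the block it called 11 (91.7%), and DESeq2 called 10. Their summed level was 262, 177, 102, 72.6 and 128 CPM in *Fezf2+ve* and 6872, 5452, 7225, 1845 and 4028 CPM in *Fezf2−ve* libraries, and *Ctss*, a lysosomal protease with 817 reads, was the best read, with 0 genes of the list lacking reads. Between *Fezf2−ve* libraries the microglia sum and the ribosomal protein share were both highest in animal 3, but in animal 5 the *Fezf2−ve* library had the higher microglia sum and the lower ribosomal protein share. The part of microglial RNA in the ribosomal protein values was not tested.

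Hemoglobin and other red blood cell genes showed the same direction. Of 7 genes 6 were tested, and these form 3 pairs with equal counts in every library (*Hba-a1* and *Hba-a2*, *Hbb-b1* and *Hbb-bs*, *Hbb-b2* and *Hbb-bt*), so that their sums can hold the same reads more than once. All 6 log2 fold changes were negative (median −4.01), and edgeR called 0 with or without the block while DESeq2 called 2 (*Hba-a1* and *Hba-a2*). Their sum was 1507, 186, 16.9, 0 and 0 CPM in *Fezf2+ve* and 7093, 5609, 367, 478 and 9.19 CPM in *Fezf2−ve* libraries, with *Hbb-b1* and *Hbb-bs* the best read (410 reads each). In both types animal 1 had the highest sum, and animals 3 and 5 had low ones, although their ribosomal protein shares were far apart. The part of blood cells in the ribosomal protein values was not tested.

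**Figure D5:**
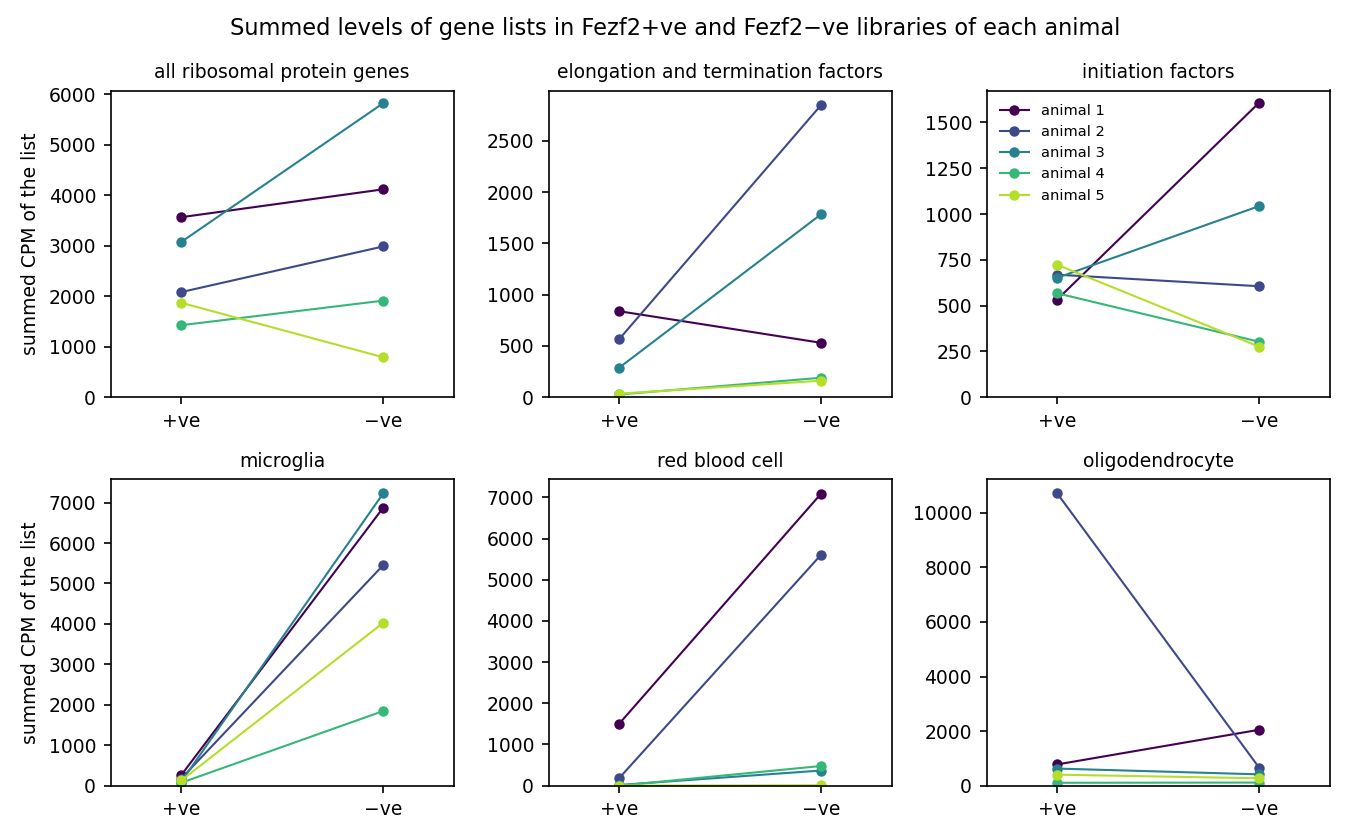
Summed CPM of 6 gene lists in the *Fezf2+ve* (left) and *Fezf2−ve* (right) library of each animal, joined by a line per animal, each panel with its own scale from 0. Ribosomal protein genes slope down only in animal 5 (1868 to 790 CPM), whereas microglia genes are higher in the *Fezf2−ve* library of all 5 animals.

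The other cell type lists gave 0 calls in edgeR with or without the block and in DESeq2. However, DESeq2 gave no adjusted p for the tested endothelial genes or for some genes of the other lists. Astrocyte genes (5 of 8 tested, *Gfap* at 0) had a median log2 fold change of 1.70, and *Slc1a2*, a glutamate transporter with 1817 reads, had 778 of them in the *Fezf2+ve* library of animal 2 and 791 in the *Fezf2−ve* library of animal 4. Oligodendrocyte genes (7 of 8 tested) had a median of 0.40. Endothelial genes (3 of 6 tested, 53 reads, *Flt1* the best read with 26) had a median of 0.50, excitatory neuron genes (8 of 12 tested) one of 0.91, and of the inhibitory neuron genes 0 passed the filter.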

How the data were processed

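The counts were made by the authors and used as deposited. As their notes say, reads were split by barcode with sabre, trimmed with the FASTX-Toolkit, aligned with TopHat2 2.1.1 to mm10 or the ERCC sequences and counted on UCSC RefFlat genes with BEDTools multiCov 2.26.0, in which a read that overlaps several genes can count on each. Strand use and counting in introns are not stated. Counts on genes were about as many as the reads reported as mapped to mm10, of which the authors place a minority, on average, in exons. Reads in introns were therefore most likely counted. ERCC counts were kept out of the gene totals.

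A gene was kept if 2 or more libraries held 10 CPM or more of it, and kept genes were fitted with edgeR 4.0.16 (quasi-likelihood, TMM, animal as block) under R 4.3.3, with Benjamini-Hochberg adjustment over all tested genes and a limit of 0.1. DESeq2 1.42.0 (Wald, same block, no prior) and edgeR without the block served as alternatives, and the code was tested on simulated data. SE values for edgeR came from the log2 fold change and the F statistic, and those for DESeq2 from its fit. Positions came from GENCODE M21, start sites from RefSeq on GRCm38.p6, copies from BLAST 2.17.0 and edlib 1.3.9.post1. Other steps used Python 3.11.15 with pandas 2.3.3 and scipy 1.17.1.

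Pairs follow the labels, by which both libraries of a number come from the same animal. The correlation of deviations within a pair was 0.028 on average (−0.030 to 0.097), so the counts themselves gave little sign of pairing.

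Genes are named if they are *Rplp0*, *Rplp1*, *Rplp2* or *Rpsa*, among the 10 members with the highest mean CPM or the 4 tested members with the smallest p in each direction, a paralog with reads, or in another list the gene with the most reads or a called one. Members and lists were chosen with earlier results of these data known. The authors' own table of differential expression was not used. Some results on single genes and sequences are not reported.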

Additional observations from a re-analysis of the deposited data

Results flagged for a closer look

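In 24 of 90 groups of 5 libraries the most extreme value stood apart by Dixon's ratio (limit 0.71). The limit flags about 1 in 20 groups by chance only where values are normally distributed, which sparse counts need not be. A group with reads in 1 library only has a ratio of 1 by its form. The number of groups flagged is thus not compared with chance. All but 1 were high values. Why these groups stood apart was not tested, and no library was removed.

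Among *Fezf2+ve* libraries the ratios were 0.713 for *Rplp0* (animal 3), 0.77 for *Rps14* (animal 1), 0.944 for *Rpl13* (animal 4), 0.985 for *Rps15* (animal 5), 0.851 for *Rps16* (animal 1), and 1 for *Rpl17* (animal 1) and *Rpl3l* (animal 4), which had reads in that library only. *Rpl31* had a low value in animal 4 (0.91). Summed lists gave 0.765 for ribosome biogenesis (animal 2), 0.803 for mTORC1 and ribosomal kinases (animal 3, from *Rps6ka2*), 0.829 for astrocytes and 0.937 for oligodendrocytes (both animal 2), 1 for inhibitory neurons (animal 5, a single read) and 0.877 for red blood cells (animal 1).

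Among *Fezf2−ve* libraries the ratios were 0.8 for *Rpl41* (animal 4), 0.931 for *Rps27* and 0.931 for *Rps27rt* (animal 3, the same counts), 0.735 for *Rps27l* (animal 1) and 1 for *Rps4l* (animal 4, a single read). Summed lists gave 0.738 for mTORC1 and ribosomal kinases (animal 1), 0.734 for nuclear long noncoding RNAs (animal 5, from *Neat1*), 0.97 for excitatory neurons (animal 3, from *Camk2a*), 0.82 for astrocytes (animal 4, from *Slc1a2*) and 0.717 for oligodendrocytes (animal 1).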

How the results depend on the processing

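Of 7409 tested genes edgeR called 0 with the animal block, 279 without the replicate block and DESeq2 98, and of the genes of the other lists 0, 12 and 12. Members called stayed at 0 throughout. Without the replicate block the log2 fold change of *Rps15* was 3.09 instead of −1.20 and that of *Rpsa* 0.052 instead of −0.14, while *Rpl13* moved from 0.98 to 3.13 and *Rpl41* from −0.32 to −1.67. Leaving out 1 animal at a time gave *Rps14* −0.47 to 0.37, *Rpl13* −0.29 to 2.263, *Rpl41* −1.01 to 0.40, *Rpl8* −0.74 to 0.40, *Rplp0* −0.72 to 0.042, *Rpsa* −0.68 to 0.079 and *Rpl7l1* −0.56 to 1.22, so their sign depended on single animals. The median of the tested members was −0.60 without the block, −0.67 in DESeq2, −0.55 with library size only and −0.57 without the filter, and −1.001 without animal 5. The difference in share, −0.0722 as reported, was −0.0303 without the 10 most-read genes of each library, −0.0216 without animal 3 and −0.117 without animal 5.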
